A study of Mus musculus with 12 samples.

Results

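The genes of cholesterol synthesis and of fatty acid synthesis and desaturation that are known targets or regulators of the SREBP transcription factors were described across fibroblasts with and without MLL1 and across 2 times after a serum shock. The group is a list of 35 mouse genes chosen by name, with earlier results of these data known. A gene was represented by its brightest probe set that carried its symbol, or an older synonym, and no other symbol, and 34 of the 35 had one, of 19938 genes on the array with such a probe set. Acat2 had none and is named only. All 34 passed the filter on dim genes and were among the 13956 genes tested.

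Cholesterol is built from acetyl-CoA through mevalonate, farnesyl diphosphate, squalene and lanosterol, and fatty acids are built from the same acetyl-CoA. When membranes hold little cholesterol, the escort protein SCAP carries SREBP precursors from the endoplasmic reticulum to the Golgi, where they are cut and release a factor that enters the nucleus and binds sterol response elements. INSIG proteins hold SCAP in the endoplasmic reticulum when sterols are plentiful. SREBP2 acts mainly on sterol genes and SREBP1 mainly on fatty acid genes, and in cultured fibroblasts both respond to the lipids that serum supplies.

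RNA of mouse embryonic fibroblasts, connective tissue cells cultured from embryos, was profiled on 12 Affymetrix arrays that cover whole transcripts, 3 in each of 4 groups. The groups were MLL1-KO at CT30, MLL1-KO at CT18, wild type (WT) at CT30 and WT at CT18. MLL1, encoded by Kmt2a, is a histone H3 lysine methyltransferase, and CT gives the hours after a pulse of 50% horse serum that lasted 2 h and sets cultured circadian clocks to a common phase. All groups were grown in DMEM with 5% fetal and 5% newborn calf serum and all received the pulse, so no unshocked cells were compared. How the knockout was made, and from how many embryos or lines the cells came, is not stated in these sources. Whether replicates were separate cultures is not stated either, and each p-value therefore reflects array-to-array spread that could be wholly technical. The number of arrays limits the precision. In a bulk sample, fewer cells of a type and less RNA per cell cannot be told apart. With the embryos and lines not stated, a KO to WT difference also cannot be told apart from a difference between lines.

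Values are probe set intensities on a linear scale, and differences are on the scale of log2(intensity + 16). "Rose", "fell", "higher" and "lower" are used as verdicts where limma's adjusted p over all 13956 genes was under 0.05. Kmt2a had intensities of 1338, 1367 and 1584 in KO CT30 arrays and of 2120, 2174 and 1960 in KO CT18 arrays, against 2129, 2155 and 2069 in WT CT30 arrays and 2265, 2824 and 2100 in WT CT18 arrays. Where its probes lie relative to the disrupted part is not given, so this does not check the labels. Array medians ran from 273.3 to 311.8, and arrays of a group correlated at 0.984 to 0.996. The first principal component, with 86.8% of the variance, lay at -56.1 to -52.2 in WT arrays and at 48.3 to 60.7 in KO arrays. The second principal component, with 7.11% of the variance, lay at 20 to 24.6 in KO CT30 arrays and at -25.2 and -24.9 in KO CT18 replicates 2 and 3, with KO CT18 replicate 1 at -9.34. That array therefore stood apart from its group towards CT30, and values without it are given beside calls that leaving it out made or ended, and for Abca1 and Elovl7.

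The labelled cell type was checked against its markers. All 8 fibroblast markers were on the array, none at 0. Their summed intensity was 49900 to 53490 in KO CT30, 50260 to 51660 in KO CT18, 55810 to 58290 in WT CT30 and 55170 to 58660 in WT CT18 arrays. Most of that sum was Fn1 and Vim. At each time 3 of the 8 were higher and 4 lower in KO, against 26.3% and 33.8% of all genes at CT18 and 24.3% and 28.6% at CT30. The lower ones were Pdgfra (log2 difference -3.22 at CT18), Col3a1 (-2.53), S100a4 and Vim. S100a4 averaged 2054 in KO CT18 arrays against 5734 in WT CT18 arrays, and Vim 15027 against 16498. The means of the other 4 lay above WT at CT18. They were Col1a1 (9193 against 6388), Col1a2 (7803 against 6772), Thy1 (232.9 against 201.1) and Fn1 (15500 against 14292.5). The 10 adipocyte markers, which matter here because fat cells use the same enzymes, summed to 1747 to 1909 in KO CT30 and 2231 to 2386 in KO CT18 arrays, against 19650 to 20420 in WT CT30 and 21220 to 21430 in WT CT18 arrays. The 5 macrophage and blood markers present summed to 1323 to 1383 in KO CT30 and 1872 to 3514 in KO CT18 arrays, against 1366 to 1546 in WT CT30 and 1675 to 1744 in WT CT18 arrays. Most of that sum was Cd68, a lysosomal protein abundant in macrophages, with 1315, 2635 and 2964 in KO CT18 arrays, of which replicate 1 was the lowest, against 1214, 1189 and 1122 in WT CT18 arrays. Cd68 and Csf1r were the only 2 of the 5 that passed the filter on dim genes. The blood cell marker Ptprc averaged 161.4 in KO CT18 arrays, against 163.1 in WT CT18 arrays, Adgre1 120.2 against 117, and Lyz2 54.7 against 70.1. The 4 epithelial markers summed to 876.5 to 1006 in KO CT30 and 924.6 to 972.5 in KO CT18 arrays, against 815.6 to 938.1 in WT CT30 and 720 to 901.1 in WT CT18 arrays. The 4 endothelial markers summed to 493.1 to 539.1 in KO CT30 and 578.9 to 710.5 in KO CT18 arrays, against 416.3 to 519.8 in WT CT30 and 410.8 to 509.8 in WT CT18 arrays, and none of them passed the filter on dim genes. Most of the gap at CT18 was Kdr, which averaged 290.1 in KO CT18 arrays against 89.6 in WT CT18 arrays. Pecam1 averaged 127.9 against 126.8, Cdh5 129.4 against 116.9 and Tek 103.5 against 126.9. The part of these cell types in the results was not tested.

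Promoter windows were read for the members as a description, and motif counts were not split by how a member behaved. The windows, of 250 bases before to 50 bases after an annotated start, come from RefSeq on build GRCm38.p6. Of the 35 members 27 had at least 1, and some had several, which gave 35 windows in all. Fdps, Fdft1, Sqle and Scd1 were among the members without a window. Those of 4 genes are shown to let the sequences be set beside the results: Insig1 and Srebf2, regulators that are themselves SREBP targets, Hmgcs1, an enzyme of the sterol branch, and Fasn, a fatty acid enzyme that ran the other way over time. Capitals mark letters of the motifs searched on both strands, which were TCACNCCAC (a sterol response element), its shortened form TCACNCCA, CCAAT (the NF-Y box, read as ATTGG on the other strand) and CACGTG (an E-box). The shortened form lies within the longer one and was added after the sequences had been seen.
Insig1 (chr5:28071162-28071461, plus strand): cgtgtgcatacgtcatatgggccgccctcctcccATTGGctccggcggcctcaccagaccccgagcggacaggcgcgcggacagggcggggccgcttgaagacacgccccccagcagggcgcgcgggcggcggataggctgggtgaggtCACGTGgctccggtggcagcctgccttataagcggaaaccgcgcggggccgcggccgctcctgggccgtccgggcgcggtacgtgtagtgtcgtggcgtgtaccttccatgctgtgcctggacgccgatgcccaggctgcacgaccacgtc
Srebf2 (chr15:82147019-82147318, plus strand): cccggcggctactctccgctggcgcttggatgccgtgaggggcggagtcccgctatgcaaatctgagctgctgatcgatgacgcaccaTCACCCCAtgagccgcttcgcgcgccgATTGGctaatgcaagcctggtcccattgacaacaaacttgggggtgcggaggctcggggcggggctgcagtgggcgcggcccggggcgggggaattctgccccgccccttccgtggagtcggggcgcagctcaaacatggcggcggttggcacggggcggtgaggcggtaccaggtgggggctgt
Hmgcs1 (chr13:119690101-119690400, plus strand): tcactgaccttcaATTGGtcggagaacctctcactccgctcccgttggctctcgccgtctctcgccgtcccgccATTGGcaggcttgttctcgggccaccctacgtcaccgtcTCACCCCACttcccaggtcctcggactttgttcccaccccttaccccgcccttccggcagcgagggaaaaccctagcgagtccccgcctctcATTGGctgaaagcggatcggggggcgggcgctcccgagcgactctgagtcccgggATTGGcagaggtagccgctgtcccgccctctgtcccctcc
Fasn (chr11:120824498-120824797, minus strand): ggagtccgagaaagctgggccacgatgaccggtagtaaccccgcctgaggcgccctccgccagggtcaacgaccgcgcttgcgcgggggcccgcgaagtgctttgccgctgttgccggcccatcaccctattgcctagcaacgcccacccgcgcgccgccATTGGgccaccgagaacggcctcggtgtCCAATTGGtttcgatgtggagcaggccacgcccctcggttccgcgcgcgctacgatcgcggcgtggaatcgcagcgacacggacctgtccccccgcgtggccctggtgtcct
A gene was counted where any of its windows held the motif. The full element occurred in 1 of the 27 members, Hmgcs1, 137 bases before the start, against 1.44% of the 27025 genes with a window. The shortened form occurred in 3 members, Hmgcs1, Srebf2 (162 bases before the start) and Msmo1 (177 bases), against 4.97% of genes. A CCAAT box lay in 22 members, or 81.5%, against 41.1% of genes, and Hmgcs1 held 4 such boxes. Members with a box included Acly, Mvd, Nsdhl, Ebp and Insig2, which were called between the genotypes at neither time. By window, 23 of the members' 35 held a CCAAT box, against 37.4% of all windows. In Fasn, which held 3, a pair of boxes on opposite strands overlapped. An E-box lay in 6 members, or 22.2%, against 8.09% of genes, and these were Hsd17b7, Sc5d, Dhcr7, Scap, Insig1 and Elovl5. These are matches of letters within the window and not mapped binding sites.

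In KO cells most sterol enzymes were higher than in WT at CT18, while at CT30 more of them were lower than higher. At CT18, 18 of the 34 members were higher and 5 lower in KO, or 52.9% and 14.7%, against 26.3% and 33.8% of all genes tested (60.1% in either direction). The median log2 difference of the members was 0.28, against -0.03 over all genes. KO and WT arrays were fully separated for 23 members, against 63.1% of all genes. The 17 enzymes from Hmgcs1 to Dhcr7 held 11 of the rises and 1 of the falls, that of Mvk, which was lost under all 3 scalings and without KO CT18 replicate 2 or WT CT18 replicate 3. Nsdhl was lower as well without KO CT18 replicate 1.

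At CT30 fewer members were higher and more were lower than at CT18, and the split lay near that of all genes. In KO 9 members were higher and 12 lower than in WT, against 24.3% and 28.6% of all genes (52.9% in either direction), shares close to the members' own 26.5% and 35.3%. The median difference was -0.18, against 0.02 over all genes. Groups did not overlap for 28 members, against 61.5% of all genes. Of the 17 sterol enzymes, 2 were higher and 7 lower. Without WT CT30 replicate 1 the lower ones were 4.

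Of the 34 members, 7 were higher in KO at CT18 and lower in KO at CT30: Pmvk, Idi1, Fdps, Lss, Cyp51, Srebf2 and Insig1. Of all genes tested 109, or 0.781%, had this pair of calls, a count made after the values had been seen. Another 7 members (Tm7sf2, Sc5d, Stard4, Npc1, Scd1, Fads1 and Elovl5) were higher at both times, where 18.9% of all genes were. Acss2 alone among the members was lower at both times, as were 23.4% of all genes. No member was lower at CT18 and higher at CT30, as 0.559% of genes were, and Acly, Mvd, Nsdhl, Ebp and Insig2 were called at neither time. The calls of Pmvk and Idi1 at both times, and of Cyp51 at CT30, were lost under some alternative settings.

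**Figure D1:**
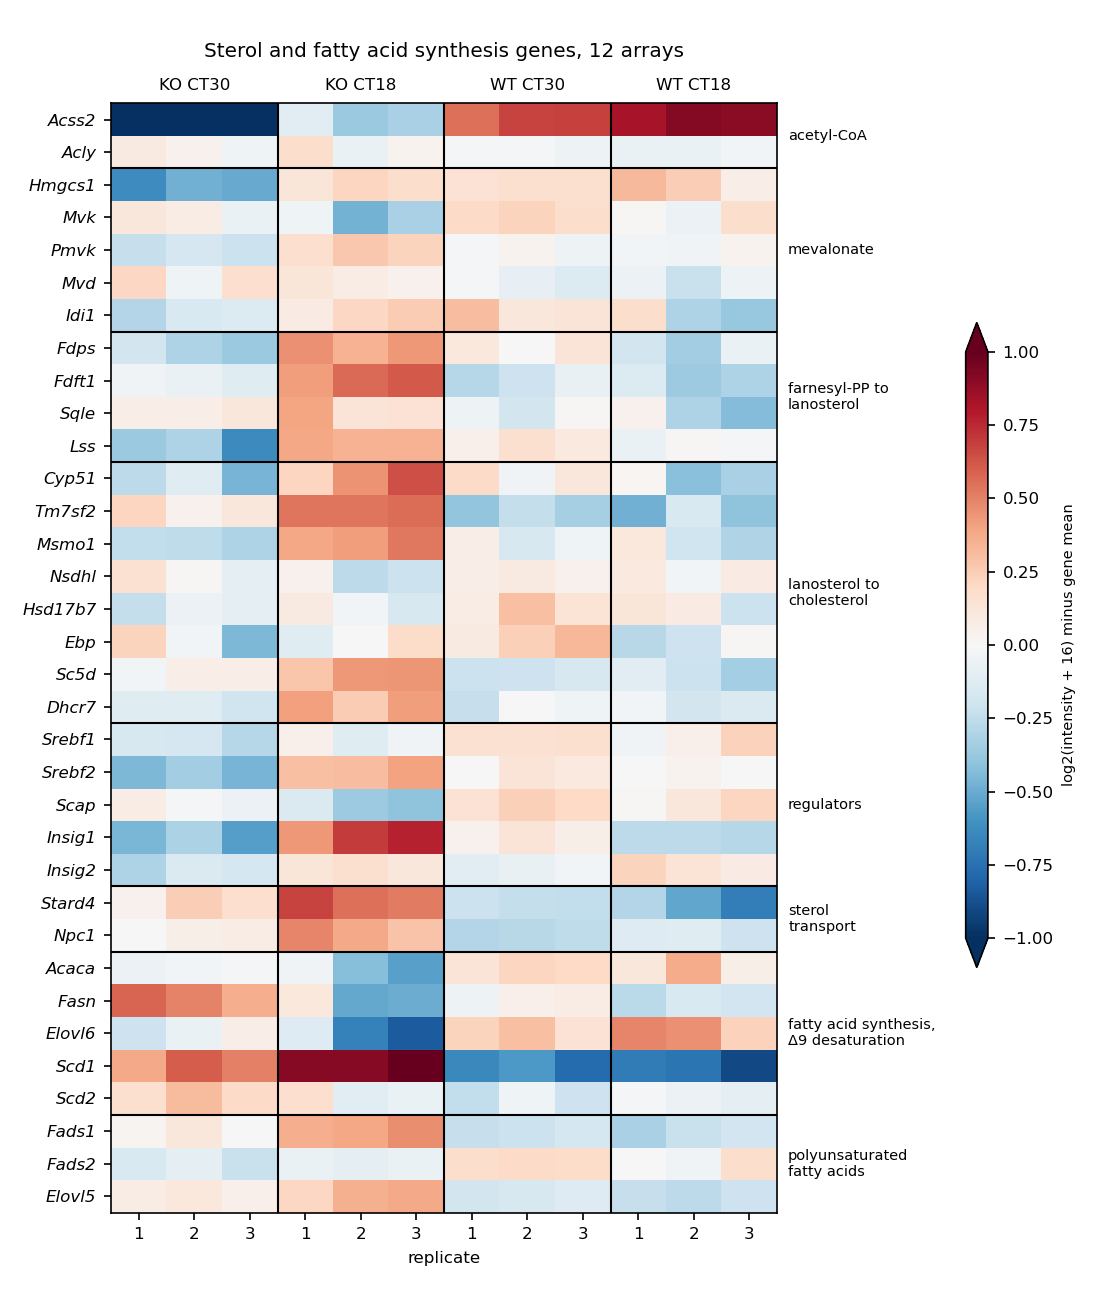
Each row is 1 of the 34 members and each column 1 of the 12 arrays. Colour gives log2(intensity + 16) minus the gene's mean over all arrays, cut off at 1 in either direction. Most sterol enzymes, Srebf2 and Insig1 are red in the KO CT18 columns and blue or pale in the KO CT30 columns, while Fasn runs the other way and Acss2 is blue in KO at CT30.

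**Figure D2:**
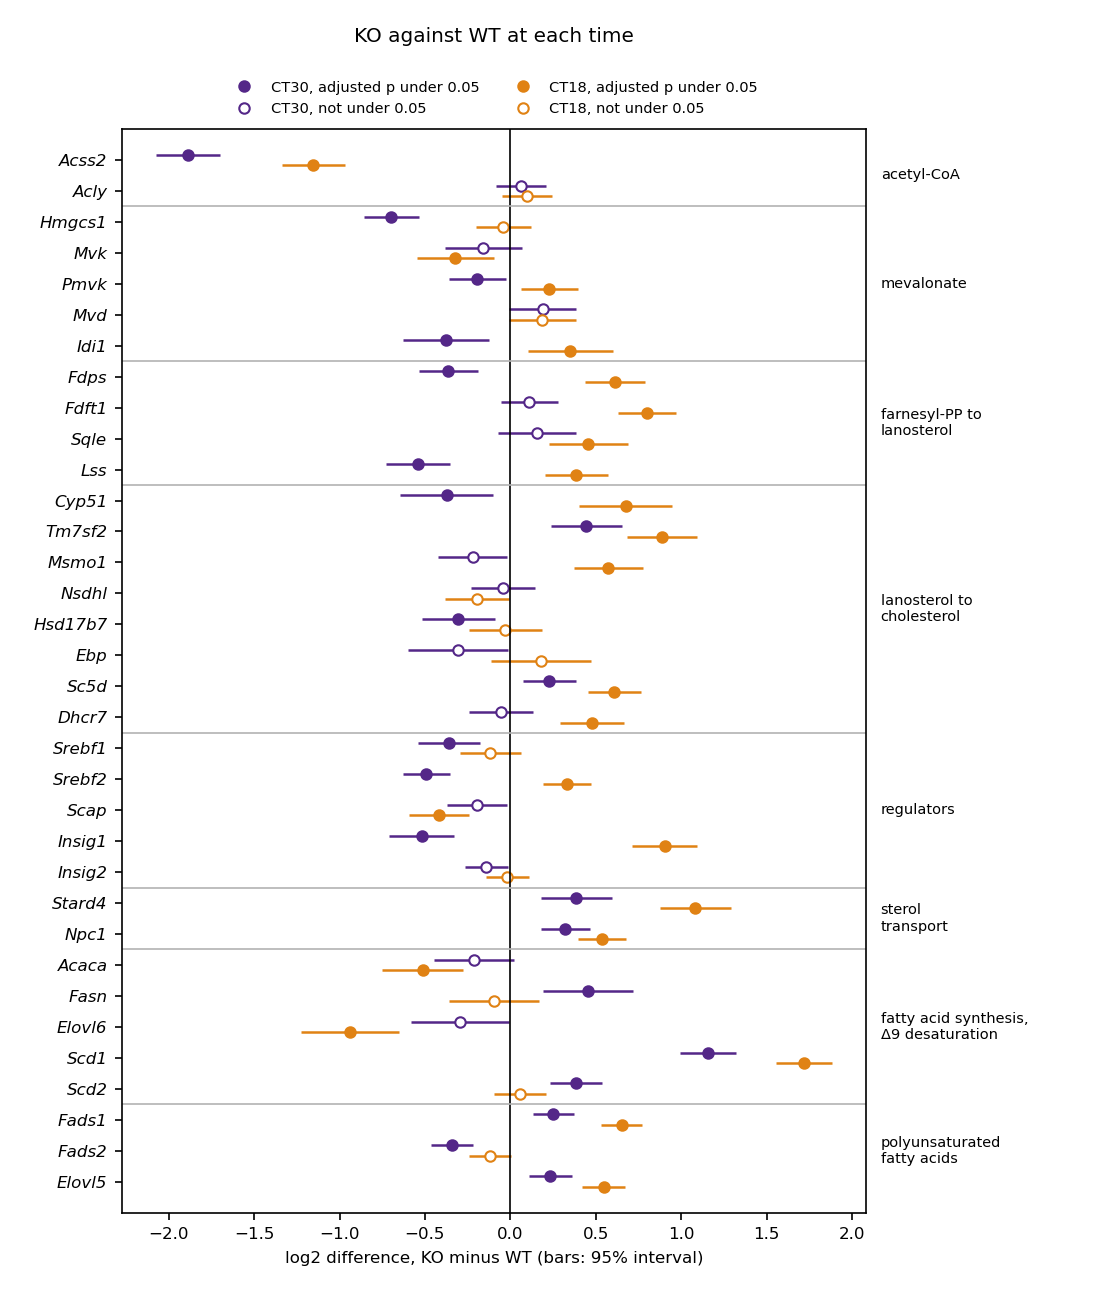
Points give the log2 difference KO minus WT for each member at CT30 (purple) and CT18 (orange), with 95% intervals, and filled points passed an adjusted p of 0.05. For Insig1, Lss, Fdps and Srebf2 the filled points lie on opposite sides of 0 at the 2 times, while both points of Scd1 lie to the right of 0 and both of Acss2 to the left.

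Between the times, most members changed in KO cells and 1 in WT cells. In KO, 6 members were higher and 20 lower at CT30 than at CT18, against 20.9% and 18.4% of all genes (39.3% in either direction), with a median of -0.35 against 0.02 over all genes. Groups did not overlap for 25 members, against 46.2% of all genes. The 6 rises were Fasn, Elovl6, Mvk, Scap, Acaca and Scd2, and 11 of the 17 sterol enzymes fell. The KO CT18 arrays serve in this comparison as well as in the one against WT at CT18, so the 2 results share samples. Under quantile scaling 3 members rose and 20 fell, and under cyclic loess scaling 3 rose and 21 fell. The rises were 2 without KO CT18 replicate 2 or replicate 3, 3 without KO CT30 replicate 2 and 7 without KO CT18 replicate 1, while the falls were 19 or 20 with any array left out.

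In WT 1 member rose between the times, Insig1, and 0 fell, against 2.41% and 1.55% of all genes (3.96% in either direction). At an unadjusted limma p under 0.05, 7 members were higher and 2 lower at CT30. The median was 0.07, against -0.01 over all genes, and groups did not overlap for 11 members, against 25.6% of all genes.

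The difference between the genotypes' time effects was tested directly. It was called for 21 members, 3 upward (Elovl6, Fasn and Scd2) and 18 downward, against 10.2% and 10.1% of all genes (20.3% in either direction). The median difference was -0.39, against 0.04 over all genes. Among the 17 sterol enzymes 11 were called downward and 0 upward, and at an unadjusted limma p under 0.05 the counts were 12 and 0. Without KO CT18 replicate 1 the members' counts were 5 upward and 19 downward. No member was called upward, and the downward counts were 15 to 18, when any of 7 arrays was left out: KO CT30 replicate 2, KO CT18 replicates 2 and 3, WT CT30 replicates 1 and 3, and WT CT18 replicates 1 and 2.

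**Figure D3:**
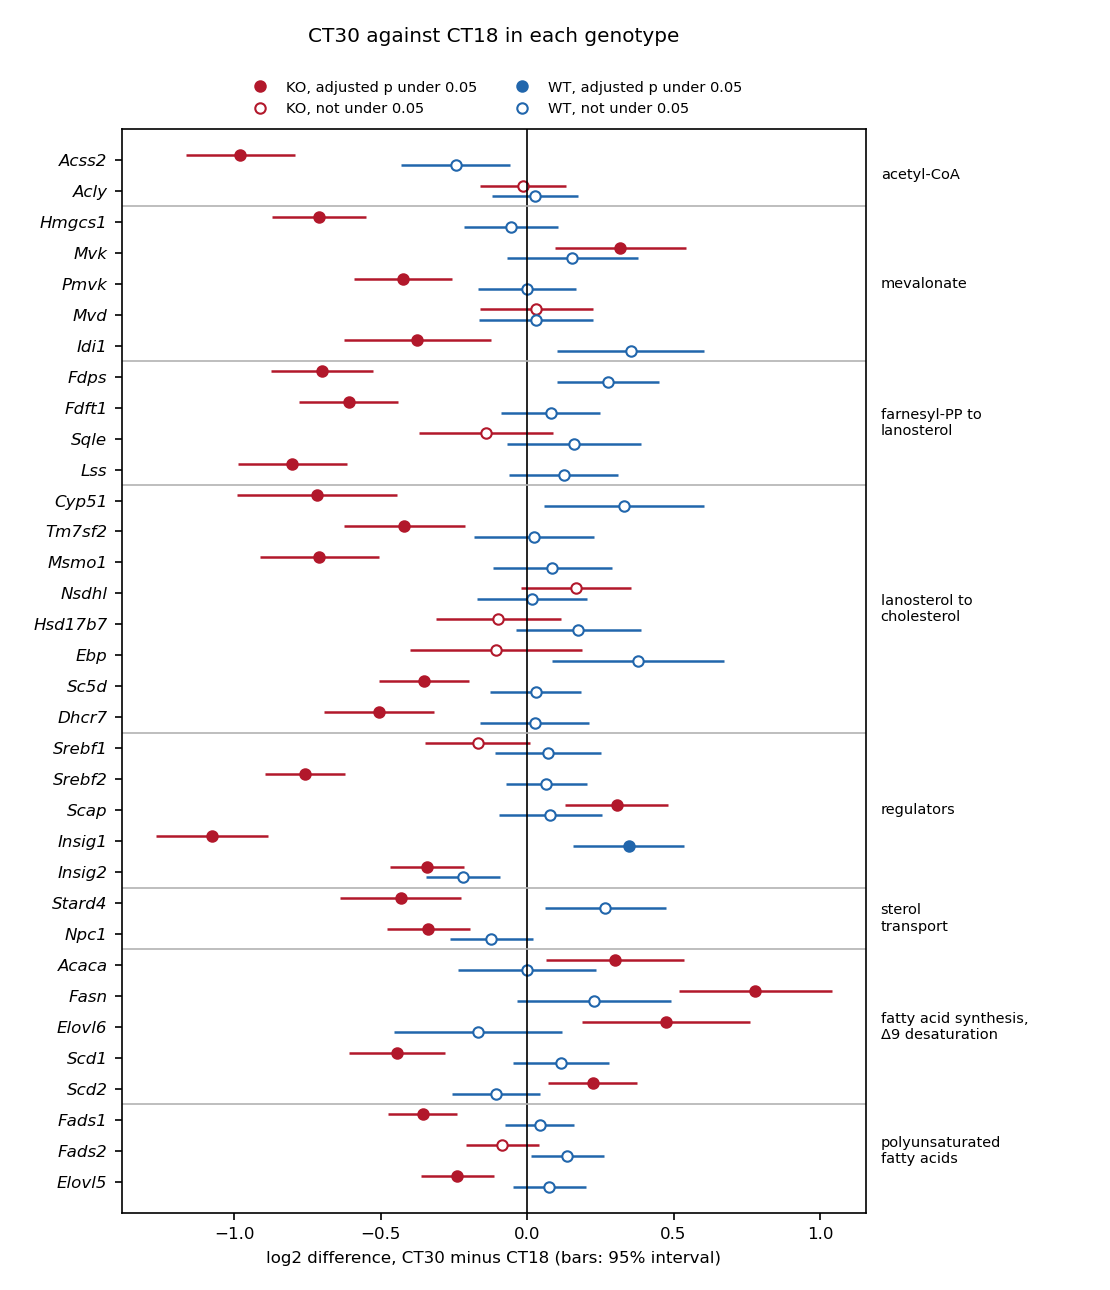
Points give the log2 difference CT30 minus CT18 for each member in KO (red) and WT (blue), with 95% intervals, and filled points passed an adjusted p of 0.05. Most KO points lie left of 0, Fasn and Elovl6 lie right of 0, and the only filled WT point is that of Insig1 at 0.35.

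**Figure D4:**
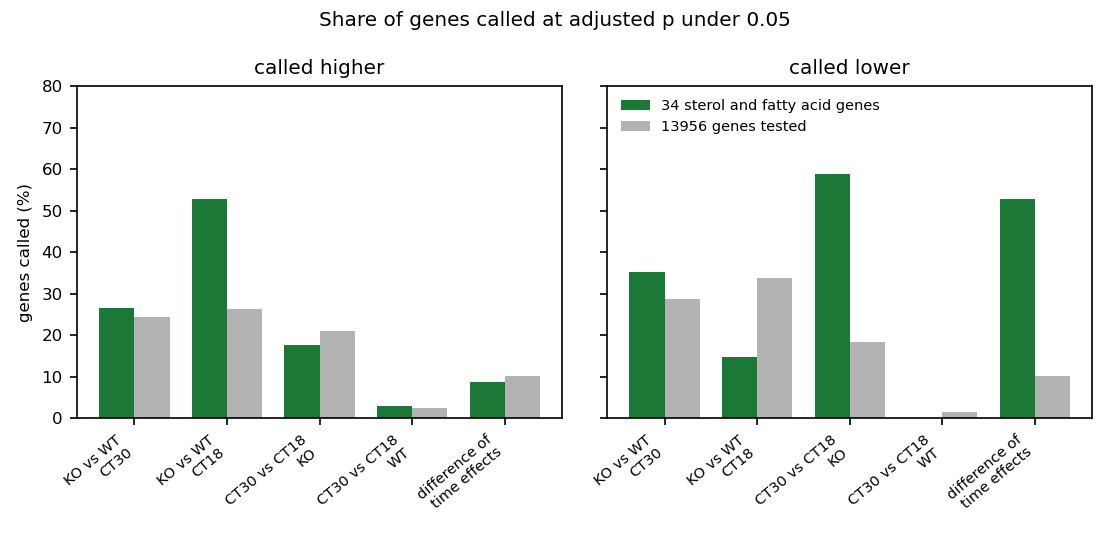
Bars give the percent of the 34 members (green) and of all 13956 genes tested (grey) called higher (left) and lower (right) at an adjusted p under 0.05 in each comparison. The green bars are tallest for higher in KO at CT18 (52.9%), lower at CT30 in KO (58.8%) and a downward difference of time effects (52.9%).

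Among the 5 regulators, Srebf2 and Insig1 moved with the sterol enzymes. Srebf2, which encodes the precursor of SREBP2, had intensities of 1692, 1813 and 1672 in KO CT30 arrays and 2857, 2874 and 3060 in KO CT18 arrays, against 2306, 2527 and 2471 in WT CT30 arrays and 2303, 2368 and 2303 in WT CT18 arrays. Every KO array lay above the WT arrays at CT18 and below them at CT30. The KO to WT difference was 0.33 ± 0.065 (SE) at CT18 (adjusted p = 0.000299) and -0.49 ± 0.065 at CT30 (adjusted p = 6.56e-06). Srebf2 fell by 0.76 between the times in KO (adjusted p = 7.12e-07) and changed by 0.07 in WT (95% interval -0.07 to 0.20), and the time effects differed by -0.82 (adjusted p = 5.06e-05).

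Insig1, whose protein holds SCAP back and whose gene is itself an SREBP target, had the largest difference of time effects of all members. Its intensity was 933.2, 1033 and 876.1 in KO CT30 arrays and 1748, 2102 and 2215 in KO CT18 arrays, against 1330, 1416 and 1342 in WT CT30 arrays and 1073, 1073 and 1058 in WT CT18 arrays. None of the 4 groups overlapped another, with KO CT18 highest and KO CT30 lowest. KO cells were 1.87-fold higher than WT at CT18 (log2 difference 0.90, adjusted p = 1.8e-07) and lower at CT30 (log2 difference -0.52, adjusted p = 0.000114). The rise with time in WT, 0.35 with a 95% interval of 0.16 to 0.54 (adjusted p = 0.0416), lost its call without the filter (adjusted p = 0.0547), without the intensity trend (0.0539) and when any of 8 arrays was left out, the 6 WT arrays and replicate 2 of each KO group (0.053 to 0.131). The difference of time effects was -1.42 (adjusted p = 8.03e-06).

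The other regulators were less alike. Scap, which encodes the SREBP escort, had 1677, 1571 and 1524 in KO CT30 arrays and 1434, 1230 and 1197 in KO CT18 arrays, against 1762, 1873 and 1824 in WT CT30 arrays and 1602, 1725 and 1843 in WT CT18 arrays. KO arrays lay below the WT arrays at both times, by -0.42 at CT18 (adjusted p = 0.000306) and by -0.19 at CT30, which did not pass (adjusted p = 0.06). Scap rose by 0.31 with time in KO (adjusted p = 0.00737), opposite to Srebf2 and Insig1. Without KO CT18 replicate 1, the highest Scap array of its group, the CT30 difference from WT and the difference of time effects (0.31) passed, with adjusted p-values of 0.0246 and 0.0346. The CT30 difference also passed without KO CT30 replicate 1 (0.0478) and when only the arrays compared were fitted (0.0193).

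Insig2, the second INSIG, had 3441, 3842 and 3769 in KO CT30 arrays and 4638, 4755 and 4608 in KO CT18 arrays, against 3965, 4041 and 4172 in WT CT30 arrays and 4970, 4693 and 4517 in WT CT18 arrays. The CT30 arrays lay below the CT18 arrays in both genotypes. The fall with time was -0.34 in KO (adjusted p = 0.000288), and the difference was -0.22 in WT (adjusted p = 0.0519), which passed under the 50th percentile filter (0.0413), quantile (0.0405) and cyclic loess scaling (0.0372) and without replicate 1 of either KO group or WT CT18 replicate 3 (0.0323 to 0.0388). The difference between the genotypes' time effects was -0.12 (adjusted p = 0.347, 95% interval -0.30 to 0.06). Insig2 was not called between the genotypes at CT18 (-0.02) or at CT30 (-0.14, adjusted p = 0.0582), where the same filter, median and cyclic loess scaling and leaving out WT CT18 replicate 3 gave adjusted p-values of 0.0435 to 0.0491.

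Srebf1, which encodes SREBP1, had 734.5, 730.6 and 670.3 in KO CT30 arrays and 850.6, 754.5 and 802.9 in KO CT18 arrays, against 915.3, 913.5 and 920.3 in WT CT30 arrays and 802.5, 851.1 and 966.2 in WT CT18 arrays. It was lower in KO at CT30 by -0.36 (adjusted p = 0.00189), without overlap, and overlapped at CT18. Its change with time was -0.17 in KO (adjusted p = 0.134) and 0.07 in WT (adjusted p = 0.72).

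**Figure D5:**
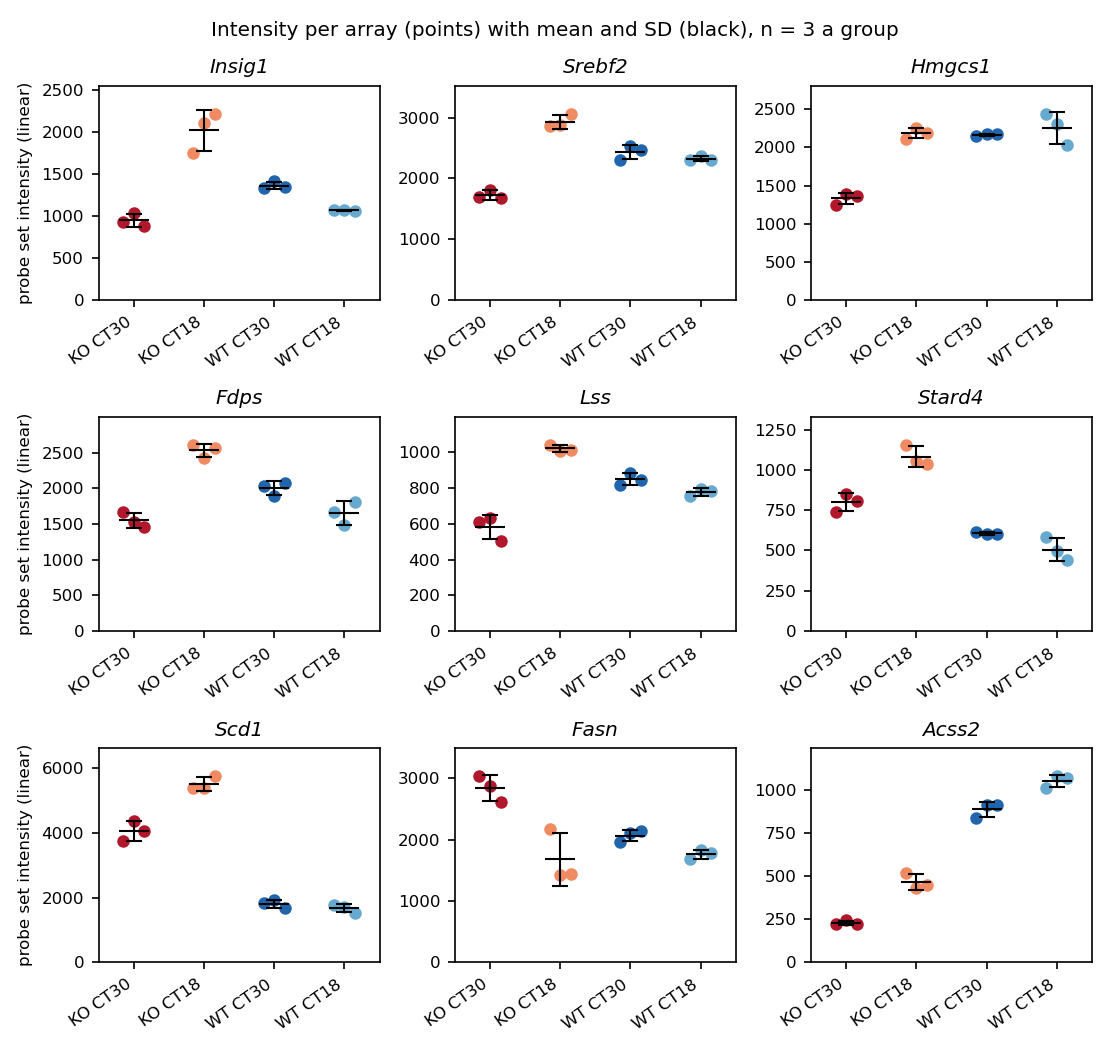
Each panel shows 1 member, with the intensity of every array as a point and the group mean and SD (n = 3) in black, from a linear axis that starts at 0. Insig1 and Srebf2 are highest in KO CT18 and lowest in KO CT30, Hmgcs1 is low only in the KO CT30 arrays, Scd1 is higher in both KO groups, and Fasn is highest in KO CT30.

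Acetyl-CoA supply was measured by 2 genes that behaved differently. Acss2, which makes cytosolic acetyl-CoA from acetate, had 222.9, 242.3 and 220.6 in KO CT30 arrays and 520.8, 432.7 and 448.8 in KO CT18 arrays, against 837.7, 913.2 and 916.7 in WT CT30 arrays and 1015, 1083 and 1068 in WT CT18 arrays. The 4 groups did not overlap, and every KO array lay below every WT array. KO was lower by -1.15 at CT18 (adjusted p = 6.54e-09) and by -1.89 at CT30 (adjusted p = 1.08e-11), where it was 0.27 of WT. It fell by 0.98 with time in KO (adjusted p = 1.08e-06), and the WT difference of -0.24 did not pass (adjusted p = 0.137). The time effects differed by -0.74 (adjusted p = 0.000951). Acly, which makes acetyl-CoA from citrate, was called in none of the 5 comparisons, with differences between -0.04 and 0.10.

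In the mevalonate pathway, 2 of 5 genes were higher and 1 lower in KO at CT18, while 0 were higher and 3 lower at CT30. Of all genes 26.3% were higher and 33.8% lower at CT18, or 60.1% in either direction, to which the step's 3 of 5 is close, and 24.3% and 28.6% at CT30. Without WT CT18 replicate 2 no gene of the step was higher at CT18, and without any of the other WT CT18 arrays or KO CT18 replicate 2 or 3 there was 1. Without WT CT30 replicate 1 only Hmgcs1 was lower at CT30, and without KO CT30 replicate 2 Mvd was higher. Hmgcs1, the synthase that makes the substrate of the rate-limiting step, had 1247, 1384 and 1364 in KO CT30 arrays and 2115, 2255 and 2193 in KO CT18 arrays, against 2148, 2171 and 2174 in WT CT30 arrays and 2438, 2305 and 2030 in WT CT18 arrays. It was low in the 3 KO CT30 arrays alone, and the other groups overlapped. The difference from WT was -0.70 at CT30 (adjusted p = 6.86e-07) and -0.04 at CT18 (95% interval -0.20 to 0.12). With time it fell by 0.71 in KO (adjusted p = 4.05e-06) and differed by -0.06 in WT, and the time effects differed by -0.65 (adjusted p = 0.000769).

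Idi1, which isomerises isopentenyl diphosphate, had 1070, 1176 and 1191 in KO CT30 arrays and 1392, 1516 and 1563 in KO CT18 arrays, against 1626, 1420 and 1435 in WT CT30 arrays and 1485, 1058 and 1003 in WT CT18 arrays. WT CT18 replicate 1 lay among the KO CT18 arrays. The differences from WT were 0.35 at CT18 (adjusted p = 0.0167) and -0.38 at CT30 (adjusted p = 0.0127), and the time effects differed by -0.73 (adjusted p = 0.00643). The CT18 call was lost when only the arrays compared were fitted (adjusted p = 0.0508) or without KO replicate 3 (0.0539), WT replicate 2 (0.0787) or WT replicate 3 (0.0936), and the CT30 call without WT replicate 1 (0.0627). The fall of 0.37 in KO with time was lost without KO CT18 replicates 2 (0.056) or 3 (0.061) or KO CT30 replicate 1 (0.068), and without WT CT18 replicate 1 the WT difference became 0.53 and passed (0.0107).

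Pmvk and Mvk, the kinases of the pathway, ran in opposite directions at CT18 and over time in KO. At CT30 both lay below WT, and the Mvk difference of -0.16 did not pass (adjusted p = 0.231). Pmvk was higher in KO at CT18 by 0.23 (adjusted p = 0.0193), lower at CT30 by -0.19 (adjusted p = 0.0496), and fell by 0.42 with time in KO (adjusted p = 0.000485). Mvk was lower in KO at CT18 by -0.32 (adjusted p = 0.0148) and rose by 0.32 with time in KO (adjusted p = 0.0247), calls lost under all 3 scalings (adjusted p-values from 0.0678 to 0.097 and from 0.052 to 0.066). Leaving out single arrays also ended them, at CT18 KO replicate 2 (0.0974) and WT replicate 3 (0.0717), and over time KO CT18 replicates 2 (0.148) and 3 (0.0711) and KO CT30 replicates 1 (0.0845) and 2 (0.0756). For Pmvk the CT18 call ended without KO replicate 2 (0.0754) or WT replicates 1 (0.0508) or 2 (0.0563), and the CT30 call ended without any of 11 arrays (0.0556 to 0.161). Mvd, the decarboxylase, was called in none of the comparisons, with a difference of 0.19 at each time that passed at CT18 under all 3 scalings (0.0287 to 0.0416) and at CT30 without KO replicate 2 (0.0371).

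From farnesyl diphosphate to lanosterol, all 4 genes were higher in KO at CT18, 0 were higher and 2 lower at CT30, and 3 fell with time in KO, where 18.4% of all genes did. Of all genes 26.3% were higher at CT18, and 24.3% were higher and 28.6% lower at CT30. In either direction 52.9% were called at CT30, to which the step's 2 of 4 is close. Fdps, which makes farnesyl diphosphate, had 1671, 1525 and 1464 in KO CT30 arrays and 2607, 2422 and 2561 in KO CT18 arrays, against 2037, 1890 and 2073 in WT CT30 arrays and 1669, 1483 and 1809 in WT CT18 arrays. The KO CT18 arrays were the highest of the 12, and the KO CT30 arrays lay below the WT CT30 arrays. Differences from WT were 0.61 at CT18 (adjusted p = 5.5e-06) and -0.36 at CT30 (adjusted p = 0.00124). With time it fell by 0.70 in KO (adjusted p = 8.8e-06) and differed by 0.28 in WT (adjusted p = 0.0689), a value that passed without KO CT18 replicate 1 (0.0465) or WT CT18 replicate 3 (0.0273), and the time effects differed by -0.98 (adjusted p = 7.26e-05).

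Fdft1, squalene synthase and the first step committed to sterols, had 2246, 2194 and 2111 in KO CT30 arrays and 3078, 3425 and 3528 in KO CT18 arrays, against 1889, 1996 and 2183 in WT CT30 arrays and 2089, 1790 and 1859 in WT CT18 arrays. The KO CT18 arrays stood alone, and the KO CT30 arrays overlapped the WT CT30 arrays. KO was 1.74-fold higher at CT18 (0.80, adjusted p = 1.71e-07), and the difference at CT30 was 0.11 (adjusted p = 0.259). It fell by 0.61 in KO (adjusted p = 2.31e-05), and the time effects differed by -0.69 (adjusted p = 0.000764).

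Lss, which closes squalene epoxide into lanosterol, had 607.4, 634.1 and 503.7 in KO CT30 arrays and 1041, 1009 and 1013 in KO CT18 arrays, against 817.6, 885.3 and 845.5 in WT CT30 arrays and 754, 795.8 and 782.6 in WT CT18 arrays. None of the 4 groups overlapped another. Differences from WT were 0.39 at CT18 (adjusted p = 0.00105) and -0.54 at CT30 (adjusted p = 5.87e-05), and the time effects differed by -0.93 (adjusted p = 0.000196). Sqle, the epoxidase before it, was higher in KO at CT18 by 0.46 (adjusted p = 0.00152) and was called in no other comparison, with a difference of time effects of -0.30 (adjusted p = 0.188) that became -0.44 without WT CT18 replicate 1 (0.0317).

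From lanosterol to cholesterol, 5 of 8 genes were higher and 0 lower in KO at CT18, while 2 were higher and 2 lower at CT30, and 5 fell with time in KO. Of all genes 26.3% were higher and 33.8% lower at CT18, 24.3% and 28.6% at CT30, and 18.4% fell with time in KO. The CT30 counts are close to the shares over all genes, and there was 1 lower without WT CT30 replicate 1 or 3 or KO CT30 replicate 3, and 1 higher without KO CT30 replicate 2. Under quantile scaling 0 were lower at CT30. Without KO CT18 replicate 1, 1 gene of the step was lower at CT18 and 1 rose with time in KO, in both cases Nsdhl. Cyp51, which removes a methyl group from lanosterol, had 636, 701.2 and 550.8 in KO CT30 arrays and 891.4, 1049 and 1204 in KO CT18 arrays, against 874.3, 746.2 and 831.4 in WT CT30 arrays and 777.4, 569.3 and 607.4 in WT CT18 arrays. The KO CT18 arrays were the highest, and at CT30 every KO array lay below every WT array. Differences from WT were 0.68 at CT18 (adjusted p = 0.000227) and -0.37 at CT30 (adjusted p = 0.0224), and the time effects differed by -1.05 (adjusted p = 0.00108). The CT30 call ended under quantile scaling (0.0546) and without KO replicate 3 (0.111), WT replicate 1 (0.0823) or WT replicate 3 (0.0626).

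Tm7sf2, the sterol reductase that acts next, had 360.6, 317.9 and 334.1 in KO CT30 arrays and 453.3, 452.9 and 462.2 in KO CT18 arrays, against 230.7, 258 and 242 in WT CT30 arrays and 215.9, 275.8 and 229.7 in WT CT18 arrays. Every KO array lay above every WT array, the WT groups overlapped, and the KO groups did not. KO was higher by 0.89 at CT18 (adjusted p = 5.57e-07) and by 0.45 at CT30 (adjusted p = 0.000948), and it fell by 0.42 with time in KO (adjusted p = 0.00259). The time effects differed by -0.44 (adjusted p = 0.0319), a call that ended when any of 7 arrays was left out (0.0597 to 0.0867).

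Ebp, the isomerase of the late pathway, varied widely within groups, with 1051, 883.9 and 657.3 in KO CT30 arrays and 829, 897.9 and 1027 in KO CT18 arrays, against 959.5, 1068 and 1139 in WT CT30 arrays and 738.8, 777.9 and 909.6 in WT CT18 arrays. The KO groups overlapped and the WT groups did not. It was called in none of the comparisons, and the WT difference with time was 0.38 (adjusted p = 0.141, or 0.0254 when only WT arrays were fitted). Without KO CT30 replicate 1, the highest array of its group, the CT30 difference from WT was -0.46 (adjusted p = 0.00875) and the difference of time effects -0.64 (0.0228). The difference of time effects also passed without KO CT18 replicate 1, at -0.55 (0.0496).

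The rest of the late pathway divided. Msmo1, the methyl sterol oxidase, was higher in KO at CT18 by 0.57 (adjusted p = 6.13e-05), differed by -0.22 at CT30 (adjusted p = 0.0646, or 0.0173 to 0.0462 with only the arrays compared or without WT CT18 replicate 1 or 3 or WT CT30 replicate 2) and fell by 0.71 with time in KO (adjusted p = 3.11e-05). Sc5d, a desaturase near the end, was higher by 0.61 at CT18 (adjusted p = 1.71e-06) and by 0.23 at CT30 (adjusted p = 0.0152, or 0.0576 without KO CT30 replicate 2). Dhcr7, the reductase that makes cholesterol itself, was higher by 0.48 at CT18 (adjusted p = 0.00017), differed by -0.05 at CT30, and fell by 0.51 with time in KO (adjusted p = 0.000284). All 3 had a downward difference of time effects, of -0.79, -0.38 and -0.53, and that of Sc5d missed the threshold without KO CT18 replicate 2 (adjusted p = 0.0518). Nsdhl and Hsd17b7, which with Msmo1 complete the removal of methyl groups, moved little: Hsd17b7 was lower in KO at CT30 by -0.30 (adjusted p = 0.0181), lost under quantile scaling (0.0509) and without KO CT30 replicate 1 (0.0735) or WT CT30 replicate 2 (0.0955). Nsdhl was called in none, and without KO CT18 replicate 1 its CT18 difference was -0.29 (adjusted p = 0.00508) and its change with time in KO 0.26 (0.0146).

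Both sterol transport genes were higher in KO at each time and fell between the times in KO. Of all genes 26.3% were higher at CT18 and 24.3% at CT30, and 18.4% fell with time in KO. Stard4, a carrier that moves cholesterol through the cytosol, had 739.4, 850.6 and 805.4 in KO CT30 arrays and 1155, 1056 and 1036 in KO CT18 arrays, against 616.1, 603.3 and 601.5 in WT CT30 arrays and 581.7, 494.7 and 438.3 in WT CT18 arrays. None of the 4 groups overlapped another. KO was 2.12-fold higher at CT18 (1.08, adjusted p = 5.4e-08) and 1.31-fold higher at CT30 (0.38, adjusted p = 0.00321). It fell by 0.43 in KO (adjusted p = 0.00222) and differed by 0.27 in WT (adjusted p = 0.143), and the time effects differed by -0.70 (adjusted p = 0.00252). Npc1, which exports cholesterol from lysosomes, was higher by 0.54 at CT18 (adjusted p = 2.57e-06) and by 0.32 at CT30 (adjusted p = 0.00064) and fell by 0.34 with time in KO (adjusted p = 0.0008), while its difference of time effects, -0.22, did not pass (adjusted p = 0.123).

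The genes of fatty acid synthesis and of desaturation to monounsaturated fatty acids ran mostly against the sterol genes over time: 4 of 5 rose and 1 fell between the times in KO, against 20.9% and 18.4% of all genes. The rises were 1 without KO CT18 replicate 2 or 3, and 2 without KO CT30 replicate 2, under quantile or cyclic loess scaling or without the intensity trend. Fasn, fatty acid synthase, had 3039, 2874 and 2610 in KO CT30 arrays and 2180, 1422 and 1436 in KO CT18 arrays, against 1961, 2104 and 2133 in WT CT30 arrays and 1679, 1823 and 1779 in WT CT18 arrays. The KO CT30 arrays were the highest of the 12, and KO CT18 replicate 1 lay apart from its group, above all WT CT18 arrays. Fasn rose by 0.78 with time in KO (adjusted p = 0.000125) and was higher in KO at CT30 by 0.45 (adjusted p = 0.00502). At CT18 the difference from WT was -0.10 (adjusted p = 0.538), and without KO CT18 replicate 1 it was -0.30 (adjusted p = 0.00307). The time effects differed by 0.55 (adjusted p = 0.0352), a call that ended under median (0.109) and cyclic loess scaling (0.0565), without the intensity trend (0.0502) and when any of 10 arrays was left out (0.0519 to 0.103).

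Elovl6, which elongates palmitate, had 1996, 2204 and 2417 in KO CT30 arrays and 2113, 1439 and 1293 in KO CT18 arrays, against 2702, 2845 and 2560 in WT CT30 arrays and 3240, 3179 and 2716 in WT CT18 arrays. Every KO array lay below every WT array, and KO CT18 replicate 1 lay within the KO CT30 range. KO was lower at CT18 by -0.94 (adjusted p = 1.31e-05) and differed by -0.29 at CT30 (adjusted p = 0.0791), a value that passed when only the arrays compared were fitted (0.00449) or without KO CT18 replicate 1 (0.00738) or 3 (0.0426). It rose by 0.47 with time in KO (adjusted p = 0.0102), a call that ended without KO CT18 replicate 2 (0.051) or 3 (0.0613). The time effects differed by 0.64 (adjusted p = 0.026), which ended when any of 8 arrays was left out (0.0515 to 0.071).

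Scd1, the stearoyl-CoA desaturase that makes oleate, had the largest genotype difference upward. Its intensity was 3739, 4372 and 4064 in KO CT30 arrays and 5404, 5388 and 5766 in KO CT18 arrays, against 1833, 1918 and 1678 in WT CT30 arrays and 1763, 1721 and 1524 in WT CT18 arrays. Every KO array lay above every WT array, and the KO groups did not overlap. KO was 3.29-fold higher at CT18 (1.72 ± 0.078 SE, adjusted p = 6.58e-12) and 2.23-fold higher at CT30 (1.16, adjusted p = 1.44e-09). It fell by 0.44 with time in KO (adjusted p = 0.000294), and the time effects differed by -0.56 (adjusted p = 0.00238), and it was the only gene of the step to fall with time in KO.

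Scd2, the desaturase paralog, was higher in KO at CT30 by 0.39 (adjusted p = 0.000219) and differed by 0.06 at CT18. Its difference of time effects, 0.33 (adjusted p = 0.0297), ended under all 3 scalings (0.0661 to 0.149), without the intensity trend (0.0777) and when any of 7 arrays was left out (0.051 to 0.0928). Its rise of 0.22 with time in KO (adjusted p = 0.0198) ended under quantile (0.129) and cyclic loess scaling (0.137), without the intensity trend (0.0572) and without KO CT18 replicate 2 (0.114) or 3 (0.0759) or KO CT30 replicate 2 (0.101). Acaca, acetyl-CoA carboxylase, was lower in KO at CT18 by -0.51 (adjusted p = 0.000711), while its rise of 0.30 with time in KO (adjusted p = 0.0417) ended under all 3 scalings (0.0541 to 0.102) and when any of 9 arrays was left out (0.0512 to 0.209). Without KO CT18 replicate 1, its difference of time effects passed at 0.45 (adjusted p = 0.00938) and its CT30 difference from WT at -0.21 (0.0323), which also passed when only the arrays compared were fitted (0.00896). Beside these fatty acid genes, 9 of 9 tested adipocyte markers were lower in KO at CT18 and 8 of 9 at CT30, against 33.8% and 28.6% of all genes. None of the 10 on the array was at 0, and the part of fat cells in these values was not tested.

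Among the genes of polyunsaturated fatty acids, the desaturases Fads1 and Fads2 differed in direction. Fads1 had 5333, 5671 and 5269 in KO CT30 arrays and 6741, 6857 and 7254 in KO CT18 arrays, against 4480, 4521 and 4646 in WT CT30 arrays and 4192, 4487 and 4579 in WT CT18 arrays. Every KO array lay above every WT array. It was higher in KO by 0.65 at CT18 (adjusted p = 2.67e-08) and by 0.25 at CT30 (adjusted p = 0.00105), fell by 0.36 with time in KO (adjusted p = 0.00011), and its time effects differed by -0.40 (adjusted p = 0.00245).

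Fads2 had 5116, 5303 and 4887 in KO CT30 arrays and 5443, 5334 and 5446 in KO CT18 arrays, against 6430, 6506 and 6462 in WT CT30 arrays and 5699, 5550 and 6424 in WT CT18 arrays. Every KO array lay below every WT array. It was lower in KO at CT30 by -0.34 (adjusted p = 0.000102), and the CT18 difference of -0.12 did not pass (adjusted p = 0.0887). That value passed under cyclic loess scaling (0.0322), as did the change with time in KO (-0.14, 0.0482) and the difference of time effects (-0.23, 0.0436), and it passed without WT CT18 replicate 2 (0.0366). Without WT CT18 replicate 3, the WT difference with time (0.20, adjusted p = 0.0404) and the difference of time effects (-0.29, adjusted p = 0.0127) passed. Elovl5, the elongase of this branch, followed Fads1, with 0.55 at CT18 (adjusted p = 4.91e-07), 0.23 at CT30 (adjusted p = 0.00312) and a fall of 0.24 with time in KO (adjusted p = 0.00431), and its difference of time effects of -0.31 (adjusted p = 0.0147) ended without KO CT18 replicate 2 (0.0515).

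A second probe set was present for 3 members. In Idi1 the 2 probe sets differed between the genotypes by 0.35 and 0.37 at CT18 and by -0.38 and -0.39 at CT30. In Fdft1 the CT18 differences were 0.80 and 0.88, and in Acaca they were -0.51 and -0.72. All 3 genes kept their direction in both probe sets.

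Other genes of the pathway were taken from 3 further lists. Of 13 tested genes with roles in sterol or fatty acid synthesis that the member list does not hold, 4 were higher and 6 lower in KO at CT18, 1 higher and 6 lower at CT30, and 1 rose and 5 fell with time in KO. Over all genes the shares were 26.3% and 33.8% at CT18, 24.3% and 28.6% at CT30, and 20.9% and 18.4% for time in KO. The 1 higher at CT30 became 0 without replicate 1 or 2 of either CT30 group, with array medians set equal or with the mean of a gene's probe sets, and 2 under quantile scaling, and the 1 rise with time became 0 without KO CT18 replicate 2 or KO CT30 replicate 1 and under median or cyclic loess scaling, and 2 without KO CT18 replicate 1. Lbr, a sterol reductase of the nuclear envelope that carries out the same step as Tm7sf2, was higher in KO at CT18 by 0.86 (adjusted p = 1.75e-07) and fell by 0.41 with time in KO (adjusted p = 0.0012). Elovl7, a fatty acid elongase, was higher by 1.42 at CT18 (adjusted p = 7.13e-07) and fell by 1.22 with time in KO (adjusted p = 2.3e-05). Without KO CT18 replicate 1 these values of Elovl7 were 1.66 (adjusted p = 3.7e-09) and -1.46 (1.43e-07), the difference of time effects was -1.81 (1.38e-06) against -1.57 with it (0.000303), and the WT difference with time, 0.36, passed (0.0478). Lpin1, a phosphatidate phosphatase of triglyceride synthesis, was lower by -1.03 at CT18 (adjusted p = 4.29e-08) and by -2.16 at CT30 (adjusted p = 2.76e-12). The difference of time effects was called downward for 6 of the 13 and upward for 0, against 10.1% and 10.2% of all genes, with 7 and 0 of the 13 at an unadjusted limma p under 0.05. Leaving out KO CT18 replicate 1 added 1 upward call.

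Of 8 tested genes of the oxysterol receptor LXR, sterol export and oxysterol synthesis, 2 were higher and 6 lower in KO at CT18, and 1 was higher and 5 lower at CT30, against 26.3% and 33.8% of all genes at CT18 and 24.3% and 28.6% at CT30. The 50th percentile filter left 6 of these genes to test, and of those 3 were lower at CT30. Ch25h and Cyp7b1, enzymes that hydroxylate sterols, were on the array but were set aside by the filter on the mean over all arrays. Ch25h, cholesterol 25-hydroxylase, had 620.8, 627.3 and 532.9 in KO CT30 arrays and 759, 621.1 and 620.5 in KO CT18 arrays, against 16.2, 32.2 and 15.2 in WT CT30 arrays and 7.01, 23.1 and 13.2 in WT CT18 arrays. KO arrays lay far above all WT arrays, and in the fit without the filter its differences were 4.52 at CT18 (adjusted p = 2.65e-13) and 4.06 at CT30 (adjusted p = 1.36e-12), on a scale whose offset of 16 is of the size of the WT values. Without the filter 2 genes of the list were thus higher at CT30. Cyp7b1 had 124 to 176 in the 12 arrays, with overlap between the genotypes. Mylip, a ubiquitin ligase induced by LXR, had 112.7, 129.7 and 237.6 in KO CT30 arrays and 244.9, 151.6 and 168.5 in KO CT18 arrays, against 1536, 1700 and 1624 in WT CT30 arrays and 1972, 2169 and 2109 in WT CT18 arrays. All KO arrays were low, and the differences were -3.39 at CT18 (adjusted p = 1.6e-10) and -3.28 at CT30 (adjusted p = 2.79e-10). Abcg1, of the same list, ran the other way and was higher in KO by 0.57 at CT18 and by 0.37 at CT30. Its intensity was 664.7, 592.1 and 584.9 in KO CT30 arrays and 739.4, 760.4 and 837.5 in KO CT18 arrays. WT CT30 arrays had 439.9, 498.4 and 475.5, and WT CT18 arrays had 493, 505.3 and 558.2. Abca1, which exports cholesterol and is an LXR target, had 1330, 1492 and 1475 in KO CT30 arrays and 1122, 663.8 and 618.2 in KO CT18 arrays, against 1401, 1621 and 1365 in WT CT30 arrays and 1811, 2374 and 2023 in WT CT18 arrays. It was low in KO at CT18 (-1.39, adjusted p = 1.35e-06) and rose by 0.87 with time in KO (adjusted p = 0.00052), with KO CT18 replicate 1 the highest of its group, and the time effects differed by 1.37 (adjusted p = 0.00097). Without that array the values of Abca1 were -1.66 (adjusted p = 1.52e-09), 1.14 (7.48e-07) and 1.63 (1.66e-06), and the WT difference with time, -0.49, passed (0.00687).

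Of 4 tested genes of sterol-regulated protein degradation, 0 were higher and 3 lower in KO at each time, where 33.8% of all genes were lower at CT18 and 28.6% at CT30, and 2 rose with time in KO, where 20.9% of all genes did. There was 1 rise under 16 of the 24 alternatives run. Rnf139, a ubiquitin ligase of the endoplasmic reticulum, was lower by -0.70 at CT18 (adjusted p = 7.51e-08) and by -0.25 at CT30 (adjusted p = 0.00348), and its time effects differed by 0.45 (adjusted p = 0.00318).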

How the data were processed

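Labelled RNA of 12 samples was hybridised to Affymetrix arrays. The authors deposited a linear intensity for every probe set, and the submitters' processing notes name Affymetrix Expression Console 1.1 and PLIER 2.0. How arrays were normalized against each other is not stated there. Of 35557 probe sets, 21789 carried 1 gene symbol in the platform annotation, 1621 several and 12147 none listed, and 21698 were matched by Entrez number to RefSeq genes of GRCm38.p6.

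The analysis used log2(intensity + 16), a scale on which dim genes change less than they do in intensity. A gene took the probe set with the highest mean. The lowest 30% of the 19938 genes by mean were set aside (below log2 7.58, or 174.8 in intensity), which left 13956 for testing. Group means of all 4 groups were estimated together from 12 arrays in limma 3.58.1 under R 4.3.3, with eBayes and an intensity trend (8 residual and 7.98 prior degrees of freedom). P-values are two-sided and moderated, and were adjusted after Benjamini and Hochberg across every gene tested in the comparison, with calls at under 0.05 and no adjustment over the members alone. The fit was checked on simulated data in which few genes changed and arrays varied independently. That check does not cover data in which most genes differ, as at CT18, where 60.1% were called between the genotypes.

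The members and lists were chosen with earlier results of these data known. Values of every array are given for the regulators and, in each pathway step, for the member with the largest difference in each comparison, and all other members are given by their differences. Alternatives covered offsets of 1 and of 64, no filter, a 50th percentile filter, quantile, median and cyclic loess scaling over all probe sets, no intensity trend, robust eBayes, only the arrays compared, the mean of a gene's probe sets, a replicate block, and leaving out every array once. Promoter windows were RefSeq's on GRCm38.p6, read as letters only. The main fit did not pair samples by replicate number. Of 18 same-numbered pairs, 4 had deviations correlated above 0.1 (lowest -0.456, highest 0.454). For replicate 2, WT CT18 correlated with WT CT30 (0.454) and KO CT30 (0.33), and WT CT30 with KO CT30 (0.343). Differently numbered pairs reached 0.463, for WT CT30 replicate 1 with KO CT30 replicate 3. These correlations therefore cannot decide whether samples were paired.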

Additional observations from a re-analysis of the deposited data

Results flagged for a closer look

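The change between CT18 and CT30 differed between the genotypes, by a direct limma test, for 21 of the 34 members, against 20.3% of all genes tested. Values are the KO change minus the WT change on the log2 scale. Among sterol enzymes the difference was -1.05 for Cyp51, -0.98 for Fdps, -0.93 for Lss, -0.79 for Msmo1, -0.73 for Idi1, -0.69 for Fdft1, -0.65 for Hmgcs1, -0.53 for Dhcr7, -0.44 for Tm7sf2, -0.42 for Pmvk and -0.38 for Sc5d. Of the regulators and the transport and supply genes it was -1.42 for Insig1, -0.82 for Srebf2, -0.74 for Acss2 and -0.70 for Stard4. Of the fatty acid genes it was -0.56 for Scd1, -0.40 for Fads1 and -0.31 for Elovl5, and it ran upward for Scd2 (0.33), Fasn (0.55) and Elovl6 (0.64). These 21 values share the same 12 arrays and are not independent of each other.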

How the results depend on the processing

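No called difference of a named member changed sign under any of the 24 alternatives, or 23 for the difference of time effects, for which fitting only the arrays compared was not run. At CT18, 20 of the 23 members called between the genotypes stayed called under all of them, at CT30 16 of 21, for time in KO 21 of 26, for time in WT 0 of 1, and for the difference of time effects 15 of 21. The members that rose with time in KO numbered 6, and 3 under quantile and under cyclic loess scaling, with 2 to 7 when 1 array was left out. In WT the 1 rise became 0 without the filter or without the intensity trend, and 2 when only WT arrays were fitted. The 0 falls in WT became 1 under the 50th percentile filter, quantile or cyclic loess scaling, and with 1 array left out the rises were 0 to 2 and the falls 0 to 1. The 3 upward differences of time effects became 1 with array medians set equal, under cyclic loess scaling or without the intensity trend, and 0 to 5 when 1 array was left out. The cause of these shifts was not tested. Setting array medians equal changed the split of all genes called with time in WT to 421 higher and 99 lower, against 337 and 216 before. For the difference of time effects the split was 765 upward and 1777 downward with medians equal and 1049 and 1755 under cyclic loess scaling, against 1427 and 1411 before, while the members' downward count was 18, 19 and 18. With the replicate block, 18 members were higher and 5 lower in KO at CT18, 9 and 11 at CT30, 6 and 20 for time in KO, 1 and 0 for time in WT, and 3 and 18 for the difference of time effects, so it ended 1 call, that of Pmvk at CT30. The counts per pathway step and per list, and the named genes of the lists, were run under the same alternatives by a choice made after seeing the data. With 3 arrays a group and no count of reads, precision rests on the spread between arrays.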
